A study of Mus musculus with 4 samples.

Results

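The cytochrome P450 genes are described here in whole mouse pancreas, as RNA counts per gene. They were taken by name: each gene symbol made of Cyp, a family number, a subfamily letter and a gene number. The 4 libraries list 55291 genes, and 94 of them fit this pattern. Of these 94 genes, 39 had at least 10 counts in 2 libraries and are described as expressed, 55 fell short of that, and 26 of the 55 had 0 counts in every library. Pseudogenes (33 symbols), the unrelated Cypt genes (7) and 7 further symbols such as Cyp51 fall outside the pattern. Pancreas of Pdx1-Cre+, poh1f/f mice (2 libraries, labelled knockout below) is set against pancreas of Pdx1-Cre+, poh1f/+ mice (2 control libraries), so both groups carry the Cre and at least 1 poh1f allele. Pdx1 drives Cre in the cells that form the pancreatic epithelium, while blood vessels, immune cells, fat and connective tissue of the organ keep an intact gene, and neither the age nor the sex of the mice is given. The labels number the libraries rep1 and rep2 without saying that each is a separate animal, so the p-values measure a spread between libraries that may be technical.

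Cytochrome P450 enzymes are haem proteins that insert an oxygen atom into lipids, hormones, vitamins and foreign compounds. Most sit in the endoplasmic reticulum and take electrons from P450 reductase, and a few sit in mitochondria and take them from ferredoxin. Families with small substrate ranges make or break down steroids, bile acids, vitamin D and retinoic acid, while families 1 to 3 oxidise foreign compounds and are best known from liver and intestine, where the receptors AHR, PXR and CAR switch them on. In pancreas, P450 protein has been described in islets and acini. In bulk RNA a smaller number of cells of one type and less RNA per cell cannot be told apart.

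Psmd14, the gene also called Poh1, encodes the deubiquitinase of the proteasome lid. It had 65.9 and 65.2 counts per 1000000 (CPM) in the libraries labelled knockout, against 61.6 and 52.9 CPM in the control libraries. Its log2 fold change, always given as knockout minus control, was 0.20 ± 0.11 (SE), with a 95% interval of -0.09 to 0.48 and an adjusted p of 0.259 (edgeR). The gene's count therefore did not show the labelled loss, and the knockout libraries are named below by their label. The libraries held 27470926 and 27849730 counts in the group labelled knockout, against 22875618 and 24635792 in the control group, so that 1 count was worth 0.0359 to 0.0437 CPM. Acinar markers (10 genes) summed to 191 and 538 CPM in the libraries labelled knockout, against 10088 and 2144 CPM in the control libraries. The 8 adipocyte markers summed to 4388 and 3765 CPM in the libraries labelled knockout, against 321 and 917 CPM in the control libraries, and 11 lymphocyte markers to 1863 and 1467 CPM, against 139 and 99.1 CPM. Knockout replicate 2 stood apart from knockout replicate 1 on the second principal component, which held 13.5% of the variance.

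Of the 39 expressed P450 genes, all of which entered the test, 4 passed as higher and 3 as lower in the knockout libraries at an adjusted p under 0.05 (edgeR's quasi-likelihood test, adjusted over 19134 genes). That is 17.9% of the 39, beside 22.1% of all genes tested. The higher calls were 10.3% of the 39, beside 12.1% of all genes, and the lower calls were 7.69%, beside 9.95%. At an adjusted p under 0.01, Cyp4b1 and Cyp26b1 were the 2 genes called, where 5.05% of all genes passed. The median log2 fold change of the 39 was 0.06, against -0.0018 over all genes, and the 39 ranged from -2.25 to 4.97. For 24 of the 39 the knockout and control libraries did not overlap, 11 with the knockout libraries above and 13 with the control libraries above. Over all genes 68.1% did not overlap. Of the 39, 5 genes (Cyp2j5, Cyp4a32, Cyp2f2, Cyp27b1 and Cyp4f15) reached 10 counts in the libraries of 1 group only, so their entry into the test favoured a difference.

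**Figure D1:**
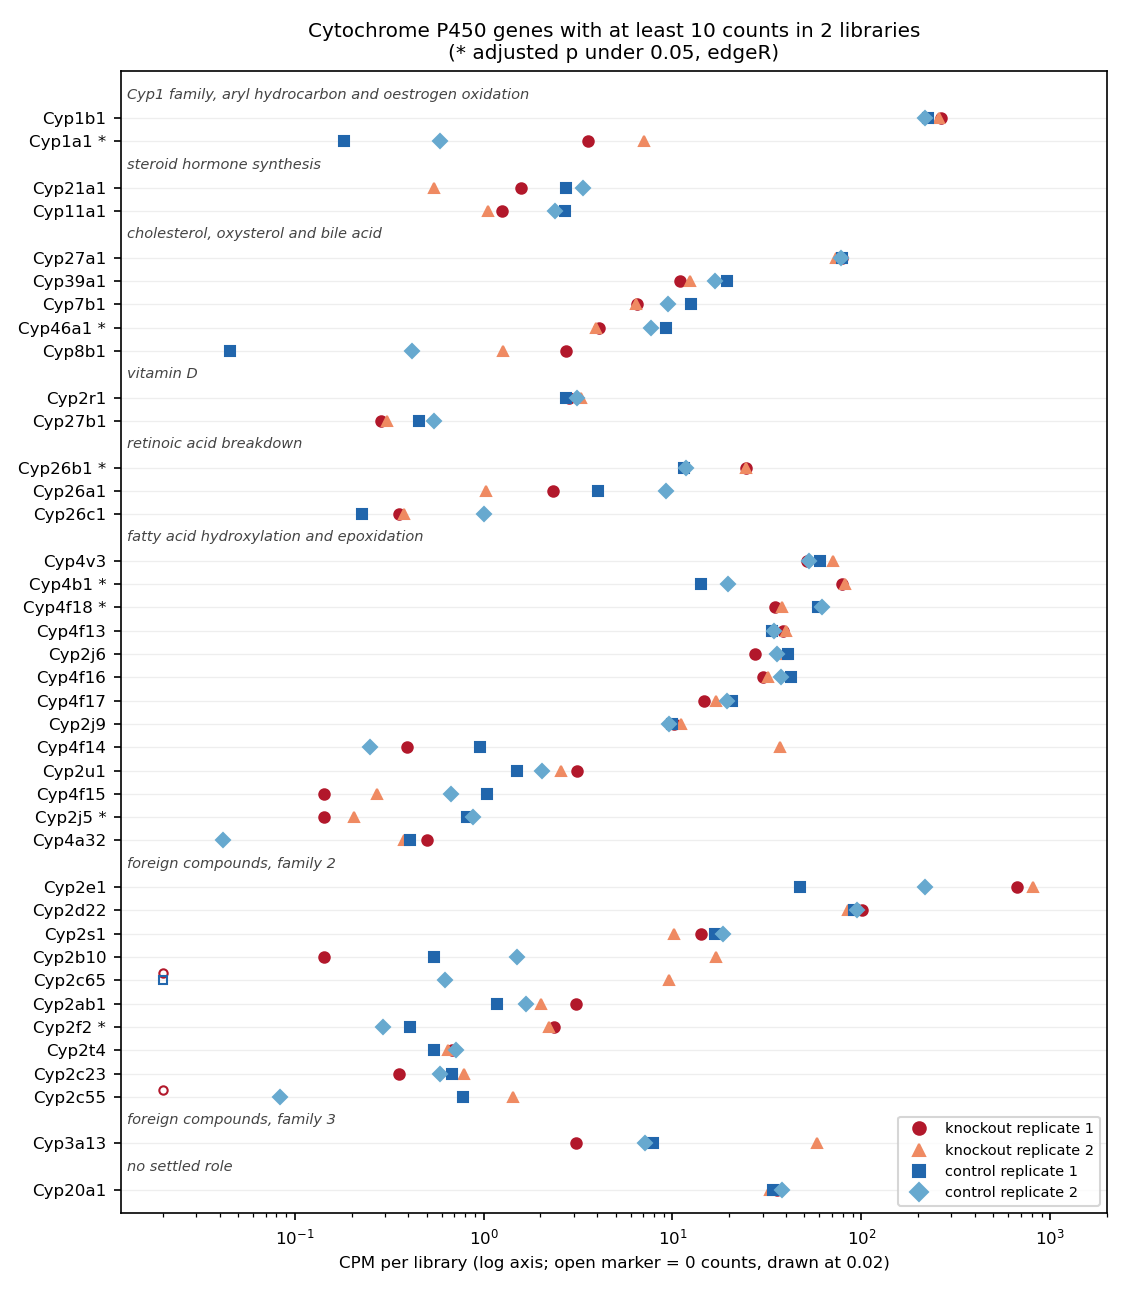
CPM of the 39 expressed P450 genes in each library, on a log axis, ordered by role; circles and upward triangles are knockout replicates 1 and 2, squares and diamonds are control replicates 1 and 2, and open markers stand for 0 counts. Both knockout libraries lie to the right of both control libraries for 11 genes and to the left for 13. The 11 include the called Cyp4b1, Cyp26b1, Cyp2f2 and Cyp1a1, and also Cyp2e1 and Cyp8b1, which were not called. Cyp4f14, Cyp2b10, Cyp2c65 and Cyp3a13 have knockout replicate 2 alone far to the right.

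Summed over the 94 genes, P450 RNA came to 1528 and 1862 CPM in the libraries labelled knockout, against 861 and 1020 CPM in the control libraries. Cyp2e1 alone supplied 44.0% and 43.5% of these sums in the libraries labelled knockout, and 5.51% and 21.3% in the control libraries. Without Cyp2e1 the sums were 856 and 1051 CPM in the libraries labelled knockout, against 813 and 803 CPM in the control libraries. Per kilobase of exon, the mean levels in the libraries labelled knockout ran in the order Cyp2e1 (343), Cyp1b1 (44.7), Cyp4b1 (35.7), Cyp27a1 (35.2), Cyp2d22 (23.8) and Cyp4f18 (19.6 CPM per kilobase). In the control libraries the order was Cyp2e1 (61.4), Cyp1b1 (38.1), Cyp27a1 (36.1), Cyp4f18 (32.6) and Cyp2d22 (23.8 CPM per kilobase). The SDs of 55.8 for Cyp2e1 in the control libraries and of 0.97 and 1.72 for Cyp4b1 and Cyp27a1 in the libraries labelled knockout (n = 2 each) leave the first place of Cyp2e1 among controls, and the order of Cyp4b1 and Cyp27a1, within the spread.

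Among the Cyp1 enzymes, which oxidise aromatic hydrocarbons and oestrogens, Cyp1a1 rose and Cyp1b1 did not pass the test. Cyp1a1 is the textbook target of the aryl hydrocarbon receptor. It had 3.58 and 7.05 CPM in the libraries labelled knockout, against 0.182 and 0.586 CPM in the control libraries. Both knockout libraries lay above both control libraries, on 100 and 206 counts against 4 and 14 counts. The log2 fold change was 3.76 ± 0.65 with an adjusted p of 0.0193 (edgeR), which became 0.0801 without control replicate 1. Cyp1b1, the highest expressed P450 gene of this family and abundant in stromal cells, had 264 and 258 CPM in the libraries labelled knockout, against 227 and 219 CPM in the control libraries. These groups lay apart by little, with a log2 fold change of 0.23 (95% interval -0.05 to 0.51, adjusted p 0.188 by edgeR). Cyp1a2, the third of the family, had no count above 2 in any library. Genes around the receptor did not pass the test: Ahr itself had 64.5 and 55.1 CPM in the libraries labelled knockout, against 67.1 and 77.1 CPM in the control libraries (adjusted p 0.191, edgeR). Its repressor Ahrr, another target, had 4.08 and 5.72 CPM, against 2.50 and 3.18 CPM in the control libraries (adjusted p 0.133, edgeR).

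Cyp26b1, which breaks down retinoic acid, rose in both knockout libraries. It had 24.6 and 24.5 CPM in the libraries labelled knockout, against 11.5 and 11.8 CPM in the control libraries. The groups were far apart for their spread, with a log2 fold change of 1.08 ± 0.14 and an adjusted p of 0.00968 (edgeR), and the call held without any one library. Its relatives did not pass: Cyp26a1 had 2.33 and 1.03 CPM in the libraries labelled knockout, against 4.05 and 9.20 CPM in the control libraries (log2 fold change -1.98, adjusted p 0.0683 by edgeR and 0.00753 by DESeq2). Cyp26a1 thus lay lower in both knockout libraries while Cyp26b1 lay higher, but its edgeR call appeared only without knockout replicate 1, at an adjusted p of 0.00602. Cyp26c1 stayed at or under 1.004 CPM in every library. Of 13 genes that take up, store, make or sense retinoic acid, 1 was higher and 5 were lower. Over all genes tested 12.1% were higher and 9.95% lower. The median log2 fold change of the 13 was -0.52. Stra6, a cell surface receptor for vitamin A uptake, fell to 18.1 and 18.4 CPM in the libraries labelled knockout, against 81.8 and 72.7 CPM in the control libraries (log2 fold change -2.08 ± 0.12, adjusted p 0.00179 by edgeR). Lrat, which makes retinyl esters for storage, rose to 8.99 and 11.4 CPM, against 0.728 and 0.586 CPM in the control libraries (log2 fold change 3.95 ± 0.30, adjusted p 0.00328 by edgeR). Both calls held without any one library. Further lower genes, Rdh10, Dhrs3 and Rarg, had log2 fold changes of -0.995, -0.97 and -0.47. Without control replicate 1 none of these 3 passed, Rdh10 was also lost without control replicate 2, and Rarg was lost in each of the 4 fits without one library. Fibroblasts also handle retinoids. Their 7 markers summed to 10245 and 8844 CPM in the libraries labelled knockout, against 24279 and 28426 CPM in the control libraries. Of the 7, 4 were lower and none was higher, beside 9.95% and 12.1% of all genes tested. Dcn had 1920 and 1656 CPM, against 1908 and 2003 CPM in the control libraries, with overlapping groups. Dpt, at 397 and 239 CPM against 220 and 359 CPM, also overlapped. The part of fibroblasts in these differences was not tested.

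**Figure D2:**
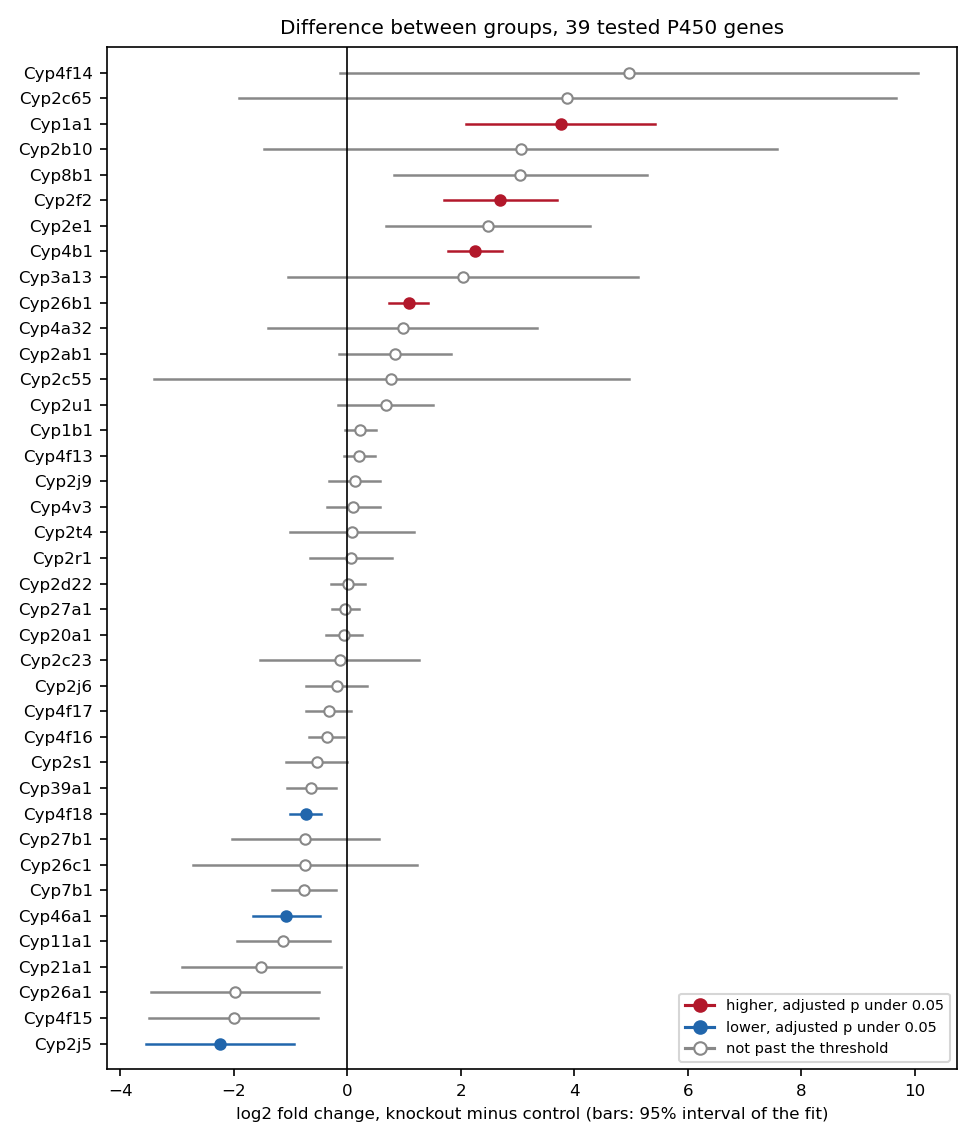
Log2 fold change, knockout minus control, of the 39 tested P450 genes with the 95% interval of the edgeR fit; red points are the 4 higher calls, blue points the 3 lower calls, and open grey points did not pass. The 3 widest intervals, those of Cyp4f14, Cyp2c65 and Cyp2b10, belong to genes that were high in knockout replicate 2 alone, while Cyp2c55, the next widest, was not in that set.

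The role class with the most expressed genes, 13 of 26, holds the enzymes that hydroxylate or epoxidise fatty acids. Of the 13, 1 was higher and 2 were lower, beside 12.1% and 9.95% of all genes tested. Cyp4b1, which hydroxylates fatty acids and activates certain plant toxins in lung, had 79.1 and 82.2 CPM in the libraries labelled knockout, against 14.1 and 19.7 CPM in the control libraries. Every knockout value exceeded every control value, and the log2 fold change was 2.25 ± 0.18 with an adjusted p of 0.00384 (edgeR). The call held without any one library, with log2 fold changes of 2.04 to 2.52. The gene lies on the minus strand of chromosome 4 (GRCm38, chr4:115624725-115647723), and 8.26% of the 50-base stretches of its exons recur elsewhere, in the pseudogenes Cyp4b1-ps1 and Cyp4b1-ps2, which had at most 2 counts in a library. The adipocyte and lymphocyte sums given above also lay higher in both knockout libraries, and their part in the Cyp4b1 difference was not tested.

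Cyp4f18, which inactivates the leukocyte attractant leukotriene B4 in mouse neutrophils, had 34.8 and 37.9 CPM in the libraries labelled knockout, against 59.2 and 61.8 CPM in the control libraries. The groups did not overlap, with a log2 fold change of -0.74 ± 0.11 and an adjusted p of 0.0125 (edgeR), which became 0.0532 without control replicate 1. Of 9 macrophage markers, 7 were lower and none was higher, beside 9.95% and 12.1% of all genes tested. Their sum was 2800 and 2628 CPM in the libraries labelled knockout, against 4527 and 3987 CPM in the control libraries. Per 100 CPM of these markers, Cyp4f18 had 1.24 and 1.44 CPM in the libraries labelled knockout, against 1.31 and 1.55 CPM in the control libraries. On this scale the groups overlapped. The log2 fold changes of the 9 markers ran from -1.20 (Cd68) to 0.005 (Mrc1), so the ratio depends on which markers are summed. The part of macrophages in the Cyp4f18 difference was not tested beyond this ratio. An exon of Zfp961 on the other strand covers 9.76% of the Cyp4f18 exons, and the sources used here do not give whether the authors' counting used strand.

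Cyp2j5, an arachidonic acid epoxygenase known from kidney, was the lower gene with the smallest counts. It had 0.143 and 0.205 CPM in the libraries labelled knockout, against 0.819 and 0.878 CPM in the control libraries, which are 4 and 6 counts against 18 and 21 counts. Its log2 fold change was -2.25 ± 0.51 with an adjusted p of 0.0369 (edgeR), and the call was lost in each fit without one library (0.0978 to 0.146) and with DESeq2 (0.0839). The other 10 genes of the class did not pass. Cyp4f16 had 30.2 and 32.0 CPM in the libraries labelled knockout, against 42.3 and 37.7 CPM in the control libraries (adjusted p 0.0925, edgeR), and Cyp4f17 had 14.7 and 17.0 CPM, against 20.6 and 19.4 CPM. Cyp4f13 had 38.7 and 39.8 CPM, against 33.5 and 34.4 CPM in the control libraries. So 2 of these neighbouring Cyp4f genes lay below the control libraries and 1 above them, none past the threshold. Overlapping groups were found for Cyp4v3 (51.3 and 71.1 CPM, against 60.7 and 53.1 CPM in the control libraries) and Cyp2j6 (27.3 and 39.8 CPM, against 41.0 and 35.6 CPM). Cyp2j9 lay between 9.58 and 11.1 CPM in all 4 libraries, and Cyp2u1, Cyp4f15 and Cyp4a32 between 0.0418 and 3.12 CPM. Soluble epoxide hydrolase, Ephx2, which hydrolyses the epoxides that the Cyp2j enzymes make, had 118 and 150 CPM in the libraries labelled knockout, against 17.8 and 40.0 CPM in the control libraries (log2 fold change 2.21 ± 0.39, adjusted p 0.0206 by edgeR). This call held without any one library. Ephx2 was the only 1 of 4 epoxide hydrolase genes called, beside 22.1% of all genes tested.

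Enzymes of cholesterol, oxysterol and bile acid turnover were expressed for 5 of 6 genes, with 1 lower and none higher. Over all genes tested these shares were 9.95% and 12.1%. Cyp46a1, the cholesterol 24-hydroxylase known from neurons, had 4.08 and 3.94 CPM in the libraries labelled knockout, against 9.28 and 7.66 CPM in the control libraries. The groups did not overlap, with a log2 fold change of -1.08 ± 0.23 and an adjusted p of 0.0316 (edgeR), but the call was lost in each fit without one library (0.0567 to 0.115). Cyp39a1, which acts on the 24-hydroxycholesterol that Cyp46a1 makes, had 10.9 and 12.3 CPM in the libraries labelled knockout, against 19.4 and 16.7 CPM in the control libraries (adjusted p 0.0541 by edgeR and 0.0284 by DESeq2). Cyp7b1, the oxysterol 7-alpha-hydroxylase, had 6.52 and 6.40 CPM, against 12.5 and 9.45 CPM in the control libraries (adjusted p 0.0665 by edgeR and 0.039 by DESeq2). Both genes lay below the control libraries without passing the main test. Cyp27a1, the mitochondrial sterol 27-hydroxylase, had 79.1 and 73.8 CPM in the libraries labelled knockout, against 79.2 and 77.7 CPM in the control libraries, and its 95% interval of -0.27 to 0.20 on the log2 scale holds no change of 1.5-fold. Cyp8b1, the sterol 12-alpha-hydroxylase, had 2.72 and 1.27 CPM, against 0.0455 and 0.418 CPM in the control libraries (log2 fold change 3.05, adjusted p 0.0641 by edgeR and 0.0171 by DESeq2). Nr1h3, the oxysterol receptor LXR-alpha, rose to 78.3 and 75.7 CPM in the libraries labelled knockout, against 26.4 and 26.8 CPM in the control libraries (log2 fold change 1.53 ± 0.10, adjusted p 0.00225 by edgeR), a call that held without any one library. Cyp51, the sterol demethylase of cholesterol synthesis, fell to 39.9 and 45.1 CPM, against 86.8 and 70.3 CPM in the control libraries (log2 fold change -0.89 ± 0.14, adjusted p 0.0162 by edgeR, lost without control replicate 1). Thromboxane synthase, Tbxas1, another P450 with its own name, had a log2 fold change of -0.58 ± 0.10 (adjusted p 0.0177, edgeR), lost in 3 of the 4 fits without one library, and prostacyclin synthase Ptgis did not pass (adjusted p 0.087, edgeR).

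Steroid and vitamin D enzymes were low and none passed. Cyp11a1, which cuts the cholesterol side chain, had 1.25 and 1.06 CPM in the libraries labelled knockout, against 2.68 and 2.38 CPM in the control libraries (adjusted p 0.0626, edgeR). Cyp21a1, the steroid 21-hydroxylase, had 1.58 and 0.548 CPM, against 2.73 and 3.35 CPM in the control libraries (adjusted p 0.11, edgeR), and 21.3% of its 50-base stretches recur, most of them in the pseudogene Cyp21a2-ps, so its counts are uncertain. Of 6 steroidogenic cell markers, Hsd3b1 and Hsd3b6 had 0 counts in all 4 libraries, and Nr5a1 had 0 counts in knockout replicate 2 and control replicate 1. Star had 35.3 and 16.5 CPM in the libraries labelled knockout, against 19.8 and 32.8 CPM in the control libraries, with overlapping groups. Mc2r, the corticotropin receptor, had 4.19 and 2.36 CPM, against 0.50 and 0.46 CPM in the control libraries (adjusted p 0.0164, edgeR), and was the 1 marker of the list called. That call was lost without control replicate 1 (0.0826) and without control replicate 2 (0.0678). The part of such cells in the counts of the steroid enzymes was not tested. Cyp2r1, the vitamin D 25-hydroxylase, lay between 2.73 and 3.29 CPM in all 4 libraries with overlapping groups, and Cyp27b1, the renal 1-alpha-hydroxylase, stayed at or under 0.544 CPM.

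The foreign compound enzymes of family 2 were expressed for 10 of 38 genes, 1 higher and none lower, beside 12.1% and 9.95% of all genes tested. Cyp2f2, which oxidises naphthalene in the club cells of mouse lung, had 2.36 and 2.23 CPM in the libraries labelled knockout, against 0.409 and 0.293 CPM in the control libraries. These are 66 and 65 counts against 9 and 7 counts, with no overlap. The log2 fold change was 2.70 ± 0.39 with an adjusted p of 0.0127 (edgeR), which became 0.0534 without control replicate 1, and exons of Gm15883 on the other strand cover 13.5% of its exons. Cyp2d22 had 101 and 85.1 CPM in the libraries labelled knockout, against 91.3 and 94.5 CPM in the control libraries, and its 95% interval on the log2 scale was -0.30 to 0.30. Cyp2s1 had 14.1 and 10.1 CPM, against 16.9 and 18.5 CPM in the control libraries (adjusted p 0.128, edgeR). Cyp2ab1, Cyp2t4, Cyp2c23 and Cyp2c55 lay at or under 3.08 CPM in every library. Cyp20a1, a P450 with no settled substrate, lay between 32.8 and 37.9 CPM in all 4 libraries.

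Cyp2e1, which oxidises ethanol, acetone and other small molecules, had the largest difference in CPM and did not pass the main test. It had 671 and 811 CPM in the libraries labelled knockout, against 47.4 and 218 CPM in the control libraries, and averaged 741 ± 98.5 CPM and 133 ± 120 CPM (SD, n = 2 each). Both knockout libraries were above both control libraries, and the control libraries differed from each other by more than the knockout libraries did in ratio. The log2 fold change was 2.48 ± 0.71 with an adjusted p of 0.0632 (edgeR). It passed with DESeq2 (0.0317) and in each edgeR fit without one library (0.0052 to 0.0354), with log2 fold changes of 1.78 to 3.97. Each of the 8 adipocyte markers lay higher in both knockout libraries, and 7 of them passed as higher, beside 12.1% of all genes tested. Lep, with 100 and 6.44 CPM in the libraries labelled knockout, against 1.36 and 2.47 CPM, did not pass (adjusted p 0.0638, edgeR). The sum of the 8 markers followed the same order of groups. Per 100 CPM of these markers, Cyp2e1 had 15.3 and 21.5 CPM in the libraries labelled knockout, against 14.8 and 23.7 CPM in the control libraries. On this scale the groups overlapped. The markers' log2 fold changes ran from 2.13 (Fabp4) to 8.05 (Ucp1). Fabp4 and Cfd, the largest terms of the sum in every library, had the smallest of these, 2.13 and 2.46. The ratio therefore depends on which markers are summed. Pparg, the receptor that drives fat cell formation, had 51.3 and 53.7 CPM in the libraries labelled knockout, against 18.2 and 18.1 CPM in the control libraries (log2 fold change 1.53 ± 0.11, adjusted p 0.00308 by edgeR), a call that held without any one library. The part of adipocytes in the Cyp2e1 difference was not tested beyond the ratio to their markers. The 4 ratios to marker sums given in the text were formed after the values had been seen.

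**Figure D3:**
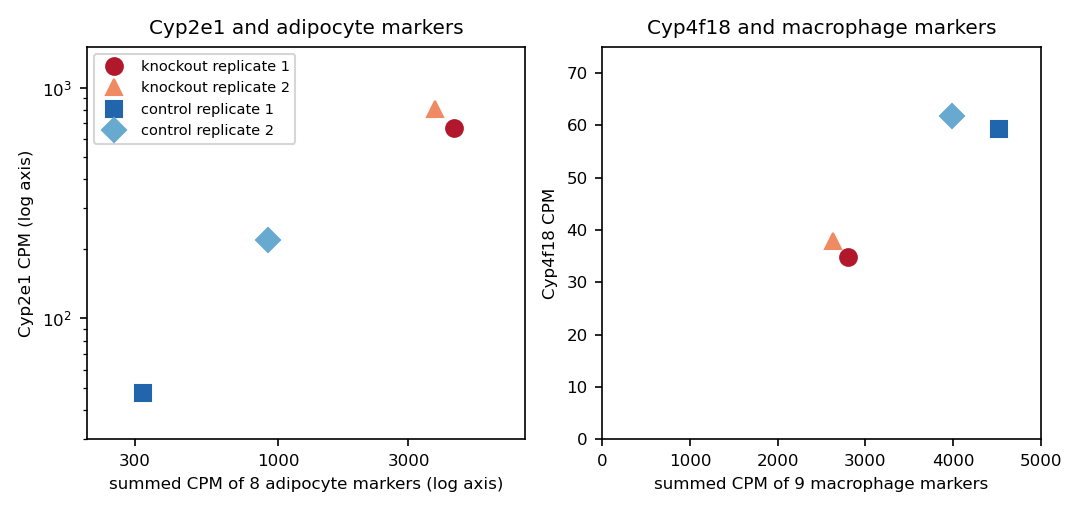
Left, CPM of Cyp2e1 against the summed CPM of 8 adipocyte markers, both on log axes; right, CPM of Cyp4f18 against the summed CPM of 9 macrophage markers on linear axes, with 1 point per library. The 2 knockout libraries lie at the upper right for Cyp2e1 (671 and 811 CPM) and at the lower left for Cyp4f18 (34.8 and 37.9 CPM).

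A set of 13 P450 genes was high in a single library, and for each of them that library was knockout replicate 2. The definition asks for at least 10 counts in the highest library and a CPM at least 4 times that of the next library, and no gene met it in any of the other 3 libraries. These genes summed to 3.62 CPM in knockout replicate 1 and 185 CPM in knockout replicate 2, against 9.64 and 9.79 CPM in the control libraries. Knockout replicate 2 also had 38 of the 94 genes at 1 CPM or more, compared with 28 in knockout replicate 1, against 26 and 27 in the control libraries. Of the 13 genes, 6 had 0 counts in the other 3 libraries. The start regions of 3 of the 13 genes are shown because their counts were high in the same library, 2 of them are near copies, and all 3 hold the same short motif. The sequences run 5′ to 3′ on the gene's strand over 250 bases before and 50 bases after the start, from RefSeq (GRCm38.p6). Capitals mark CAAAGTCC, the core of sites bound by HNF4 factors. The windows are chr5:145879805-145880104 (minus strand) for Cyp3a11, chr19:39060756-39061055 (plus strand) for Cyp2c65 and chr19:39113648-39113947 (plus strand) for Cyp2c66.
Cyp3a11: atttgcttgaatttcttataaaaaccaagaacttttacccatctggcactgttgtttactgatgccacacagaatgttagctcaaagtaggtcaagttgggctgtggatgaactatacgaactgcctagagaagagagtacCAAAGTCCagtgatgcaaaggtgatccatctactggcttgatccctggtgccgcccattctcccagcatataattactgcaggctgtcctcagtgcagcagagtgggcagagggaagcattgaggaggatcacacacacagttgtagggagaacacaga
Cyp2c65: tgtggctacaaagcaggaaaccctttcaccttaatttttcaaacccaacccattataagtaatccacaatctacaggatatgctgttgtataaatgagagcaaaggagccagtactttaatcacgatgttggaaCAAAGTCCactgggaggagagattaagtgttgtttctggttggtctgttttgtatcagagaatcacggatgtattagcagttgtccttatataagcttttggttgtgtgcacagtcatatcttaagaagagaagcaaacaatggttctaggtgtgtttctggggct
Cyp2c66: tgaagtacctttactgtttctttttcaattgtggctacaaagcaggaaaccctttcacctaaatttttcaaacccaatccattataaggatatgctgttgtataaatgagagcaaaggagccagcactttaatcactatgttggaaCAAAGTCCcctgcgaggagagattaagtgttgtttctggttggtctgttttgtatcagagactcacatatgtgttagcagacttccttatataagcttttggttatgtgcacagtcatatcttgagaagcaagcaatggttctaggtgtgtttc
The motif begins 109 bases before the start in Cyp3a11, 116 in Cyp2c65 and 104 in Cyp2c66. The Cyp2c65 and Cyp2c66 windows match at 256 of 271 aligned bases, or 94.5%, so they are not independent examples. Searched on both strands with overlap with other motifs allowed, CAAAGTCC occurred in 1.44% of 27025 promoter windows, in 13 of the 73 P450 promoters found in the table (17.8%) and in 4 of the 12 found for the single-library genes. It was chosen after these sequences had been read, and 9 of the 61 other P450 promoters hold it as well (14.8%). Another 3 motifs were searched on both strands. AGGTCA, the nuclear receptor half-site, was in 25.0% of the promoters of the single-library genes, 27.9% of the other P450 promoters and 16.0% of all windows. TATAAA was in 41.7%, 39.3% and 14.2% of these sets, including the 3 windows shown, and GCGTG, the core of AHR sites, in 33.3%, 19.7% and 32.5%.

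Cyp3a11, a main foreign compound oxidase of mouse liver and intestine, had 0 counts in knockout replicate 1 and 24.9 CPM (726 counts) in knockout replicate 2, against 0 counts in both control libraries. Set against a floor of 3 counts per library, it was at least 182-fold higher in knockout replicate 2 than in any other library. By the same floor Cyp2c29 was at least 75.3-fold higher (300 counts), Cyp3a25 at least 55.9-fold higher (223 counts) and Cyp2c66 at least 44.2-fold higher (176 counts). Cyp2c65 had 0 counts in knockout replicate 1 and 279 in knockout replicate 2, against 0 and 15 counts in the control libraries. Cyp2c65 and Cyp2c66 share 379 of their 50-base exon stretches (20.6% and 19.5%), and Cyp3a25 shares 26.8% of its own with other genes, so the split of counts within these subfamilies is uncertain. Cyp2d26 had 0 counts in knockout replicate 1 and 249 in knockout replicate 2, against 2 and 4 counts in the control libraries. Cyp4f40 (86 counts in knockout replicate 2), Cyp2c68 (65), Cyp2j12 (12) and Cyp4x1 (12) had at most 4 counts in any other library. Cyp2c68 shares 43.3% of its 50-base stretches with other genes, among them Cyp2c40, Cyp2c67 and Cyp2c69, so its counts are uncertain as well.

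Of the 13 genes, 4 were expressed by the 10-count rule and tested, and none passed the edgeR test of the 2 groups with all libraries, without further terms in the model. Cyp3a13, a family 3 enzyme, had 3.08 CPM in knockout replicate 1 and 58.4 CPM in knockout replicate 2, against 7.87 and 7.15 CPM in the control libraries. Knockout replicate 1 lay below the control libraries and knockout replicate 2 above them. Its log2 fold change of 2.03 ± 1.21 (adjusted p 0.278, edgeR) became -1.28 without knockout replicate 2 (0.0368) and 2.96 without knockout replicate 1. Cyp4f14, which hydroxylates leukotriene B4, had 0.394 CPM in knockout replicate 1 and 37.2 CPM in knockout replicate 2, against 0.955 and 0.251 CPM in the control libraries. Cyp2b10, the textbook target of CAR, had 0.143 CPM in knockout replicate 1 and 17.0 CPM in knockout replicate 2, against 0.546 and 1.51 CPM in the control libraries. Cyp4f14, Cyp2b10 and Cyp2c65 each passed without knockout replicate 1, when knockout replicate 2 alone stood for its group, and each had a log2 fold change below 0 without knockout replicate 2. The ratio of 4 was applied without the floor of 3 counts. Cyp2j12 and Cyp4x1, with 12 counts in knockout replicate 2 and 0 elsewhere, thus entered, though against the floor their ratio was 3.01. Among the genes with counts in another library, Cyp3a13 was the nearest inside the limit, at 7.42 times its next library. Just outside it, Cyp4a10 had a ratio of 3.39 on 18 counts in knockout replicate 2.

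Genes of the intestinal lining were high in the same library. The 12 enterocyte markers summed to 135 CPM in knockout replicate 1 and 943 CPM in knockout replicate 2, against 274 and 222 CPM in the control libraries, and the peptidase Anpep made up most of the sum outside knockout replicate 2. Sucrase-isomaltase, Sis, had 0 counts in knockout replicate 1 and 85.9 CPM in knockout replicate 2, against 0 counts in both control libraries. Fabp2 had 0.0716 and 107 CPM in the libraries labelled knockout, against 0.091 and 0.167 CPM in the control libraries, and the intestinal transcription factor Cdx2 had 4.35 CPM in knockout replicate 2 and 0 counts elsewhere. Most hepatocyte markers did not share the pattern. Alb had 1.86 and 0.479 CPM in the libraries labelled knockout, against 2.18 and 1.76 CPM in the control libraries. Cps1, also expressed in intestine, had 0.0716 and 49.6 CPM, against 0 counts in both control libraries. Tat had 0.896 and 1.99 CPM, against 0.728 and 0.418 CPM in the control libraries. The sum of the hepatocyte list was highest in knockout replicate 2 (58.3 CPM), where Cps1 made up most of it. Among the regulators, Nr1i2 (PXR) had 0.358 and 5.96 CPM in the libraries labelled knockout, against 0.728 and 0.753 CPM in the control libraries. Nr1i3 (CAR) had 0.0716 and 1.78 CPM, against 0.136 and 0.125 CPM in the control libraries, and Hnf4g had 0.0716 and 11.7 CPM, against 0.455 and 1.004 CPM. Hnf4a had 6.73 and 38.8 CPM in the libraries labelled knockout, against 37.2 and 35.6 CPM in the control libraries, so here knockout replicate 1 is the library that stands apart. Per 100 CPM of the enterocyte markers, the 13 P450 genes together had 2.67 CPM in knockout replicate 1 and 19.7 CPM in knockout replicate 2, against 3.52 and 4.42 CPM in the control libraries, and Cyp3a13 had 2.28 and 6.19 CPM, against 2.87 and 3.23 CPM. On this scale knockout replicate 2 lay above the other 3 libraries, but the 13 genes, Cyp3a13 included, were chosen as high in that library. Outside it the scale is mostly Anpep, at 126 CPM in knockout replicate 1 and 245 and 191 CPM in the control libraries. Anpep had 332 CPM in knockout replicate 2. This order therefore cannot show an excess of the P450 genes over intestinal markers. The part of intestinal tissue in the P450 counts of knockout replicate 2 was not tested.

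**Figure D4:**
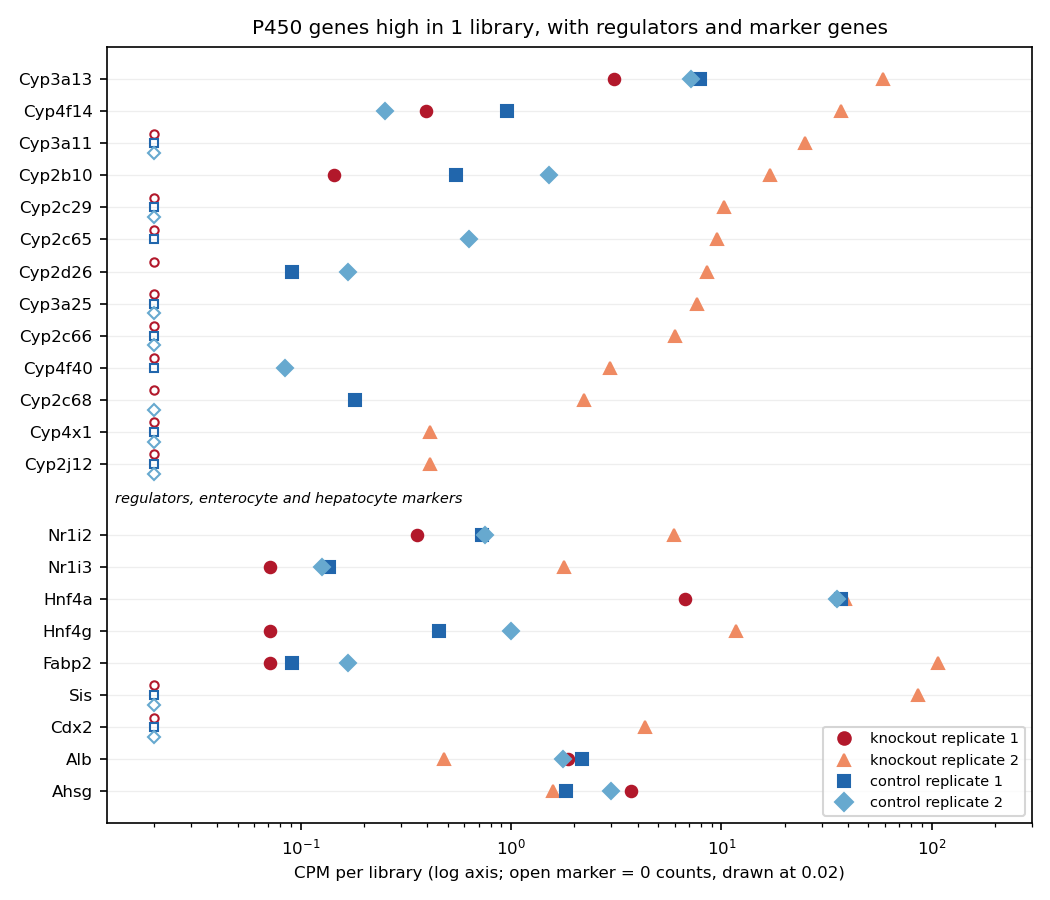
CPM per library, on a log axis, of the 13 P450 genes high in 1 library (upper block) and of regulators and marker genes (lower block); open markers stand for 0 counts. Knockout replicate 2 (orange triangles) lies to the right for each of the 13 genes and for Sis, Fabp2 and Cdx2, and not for Alb.

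Most genes that serve the P450 system as a whole did not pass the test. Of 9 measured electron donors 3 passed, 1 of 11 haem genes and 6 of 21 regulators, beside 22.1% of all genes. Of the electron donors 1 was higher and 2 were lower, with a median log2 fold change of 0.12. Fdxr, which passes electrons to mitochondrial P450 enzymes, had 26.9 and 25.9 CPM in the libraries labelled knockout, against 49.9 and 41.2 CPM in the control libraries (log2 fold change -0.79 ± 0.14, adjusted p 0.0199 by edgeR, lost without control replicate 1). Cyb5r3 fell to 223 and 198 CPM, against 331 and 341 CPM in the control libraries, and Cyb5a rose to 131 and 137 CPM, against 99.9 and 87.8 CPM; their adjusted p values were 0.0217 and 0.0314 (edgeR), and both calls were lost in 3 of the 4 fits without one library. Por, the reductase itself, had 200 and 192 CPM in the libraries labelled knockout, against 167 and 173 CPM in the control libraries (adjusted p 0.206, edgeR). Of 11 genes of haem synthesis and breakdown, Alas1, the first enzyme of the pathway, was the 1 called. It had 96.4 and 111 CPM in the libraries labelled knockout, against 67.5 and 74.5 CPM in the control libraries (log2 fold change 0.55 ± 0.12, adjusted p 0.0315 by edgeR, lost in 3 of the 4 fits without one library). Of 21 tested regulators of P450 genes 4 were higher (Nr1h3, Pparg, Ppara and Rxrg) and 2 were lower (Nr5a2 among them), with a median log2 fold change of 0.10. The calls of Ppara, Rxrg and Nr5a2 were lost without control replicate 1, and that of Nr5a2 also without control replicate 2.

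The set of P450 genes called moved with the libraries and the tool used. Without control replicate 1, 3 of the 39 were called, beside 7.6% of all genes, and Cyp4b1 and Cyp26b1 were the 2 shared with the full set. Without control replicate 2, 6 were called, 5 of them shared, beside 16.6% of all genes. Without knockout replicate 2, 8 were called, 5 of them shared, beside 17.4% of all genes, and the lower Cyp3a13 was among those added. Without knockout replicate 1, 12 were called, 5 of them shared, beside 19.3% of all genes, and the added genes included Cyp3a13, Cyp4f14, Cyp2b10 and Cyp2c65. DESeq2 called 11 of the 39, 6 of them shared, beside 27.8% of all genes, and limma-voom called the same 7 genes, beside 21.6%. With no filter on low counts, 6 were called, all shared, beside 12.4% of 31040 genes.

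**Figure D5:**
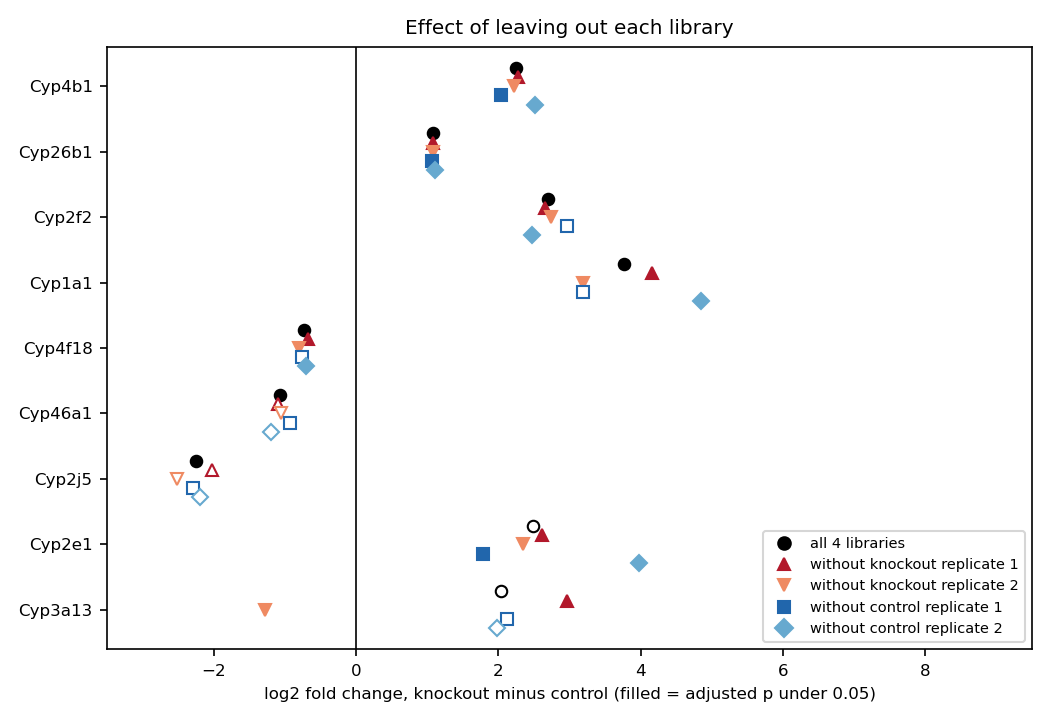
Log2 fold change, knockout minus control, of 9 P450 genes with all 4 libraries (black circle) and without each library in turn; filled markers have an adjusted p under 0.05 by edgeR. Cyp4b1 and Cyp26b1 keep filled markers throughout, Cyp46a1 and Cyp2j5 lose them without any one library, and Cyp3a13 moves to -1.28 without knockout replicate 2.

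The 55 genes under the 10-count rule comprise the 26 with no count, the 9 of the single-library set and 20 others, whose highest count in any library was 18. These 20 include Cyp17a1 (5 and 4 counts in the libraries labelled knockout, against 0 and 0 in the control libraries) and Cyp11b1 (11 and 4 counts, against 0 and 6), both of adrenal and gonadal steroid synthesis, and Cyp24a1, the vitamin D 24-hydroxylase, with 1 count in all. None of these 20 genes entered the main test, so a difference between groups is not judged for them.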

How the data were processed

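RNA of whole pancreas was measured in 4 libraries, 2 labelled knockout and 2 control. Each library was deposited as a table of raw counts per gene symbol. The submitters' processing notes name STAR 2.7.6a, featureCounts 2.0.1, SAMtools 1.7, FastQC 0.11.9, Trim Galore 0.6.6 and the build GRCm38. The sources used here give neither the strand setting nor the treatment of reads with several matches. These settings bear on near-identical P450 genes. Their shared 50-base exon stretches were counted among the GENCODE transcript sequences of GRCm38, so copies outside annotated transcripts were not searched. In every library more genes had exactly 2 counts (2545 to 2746) than exactly 1 count (850 to 881), so the floors given for a count of 0 (3 counts) cover counting error only and may be too narrow.

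The test was edgeR's quasi-likelihood F test (version 4.0.16, R 4.3.3) after filterByExpr and TMM scaling, with Benjamini-Hochberg adjustment over all 19134 genes tested and a threshold of 0.05. The common biological coefficient of variation was 23.0%. CPM values are counts per 1000000 of the TMM-scaled library, and each SE was computed as the size of the log2 fold change over the root of F. DESeq2 1.42.0, limma 3.58.1 (voom), other scalings and filters, a replicate block, a threshold of 0.01 and the loss of each library were the alternatives. With 1 library left in a group, that library was assumed to vary like the other group. Replicates differed by far more than sampling noise (chi-square per degree of freedom 36.0 and 50.9), so none was a repeated library.

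The genes and lists were chosen with earlier results of these data known. Named with a value per library are the called P450 genes, the others reaching 10 CPM in a library, those high in 1 library, and up to 3 called genes of each list; further genes were chosen after their values were seen, and the values of some list genes are not reported here. Marker lists for 12 cell types were summed; those of duct (754 and 807 CPM in the libraries labelled knockout, against 2962 and 2435 CPM in the control libraries), islet (460 and 156, against 1845 and 1063), endothelial (1279 and 1161, against 777 and 1075) and smooth muscle cells (1629 and 877, against 1014 and 2732) are given here alone. The steroidogenic cell list summed to 39.7 and 21.0 CPM, against 20.4 and 34.1, and the hepatocyte list to 13.6 and 58.3, against 34.5 and 23.8.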

Additional observations from a re-analysis of the deposited data

How the results depend on the processing

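The 4 higher and 3 lower calls among the P450 genes were kept with the size factors of DESeq2, with upper quartile factors, with library totals and with a filter of 10 counts in 2 libraries. At an adjusted p threshold of 0.01 the counts were 2 higher and 0 lower, with 967 of all genes called. DESeq2 called 5 lower genes. Without one library, the counts ranged over 3 to 9 higher and 0 to 3 lower, and over 1454 to 3699 of all genes; the lowest values came without control replicate 1 and the highest without knockout replicate 1. The median log2 fold change of the tested P450 genes was 0.16 with library totals, where the median over all genes lay at 0.10, 0.38 with no filter, where 68 P450 genes entered, and -0.0026 with limma-voom; without one library it ranged over -0.41 to 0.16. The causes were not tested.

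The labels do not say whether the replicate numbers pair the libraries. The deviations of knockout replicate 1 and control replicate 1 from their group means correlated at 0.0282. With 2 libraries a group this is a single contrast, so it cannot decide whether they are paired. A fit with the replicate block called 6 higher and 1 lower P450 genes and 3392 of all genes (17.7%); it added Cyp2e1 and Cyp2c65 and lost Cyp46a1 and Cyp2j5.

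Over 45 genes, which include the P450 genes named with a fold change, the called genes of the lists and Psmd14 (540 comparisons with an alternative), the side of the threshold was kept in 477, a call was lost in 49 and gained in 13 with the same direction, and 1 value reversed with a call. That 1 was Cyp3a13, at -1.28 without knockout replicate 2, within a range of -1.28 to 2.96. Among the 477, the sign changed without a call in either fit for 8 other genes, of which Cyp2c65 went lowest (-6.00 without knockout replicate 2). With 2 libraries a group, small differences at low counts could not be resolved.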
